A study of Mus musculus with 93 samples.

Results

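The interferon-stimulated genes examined here are 39 genes that respond to type I or type II interferon, listed by symbol and matched to the count table by Ensembl identifier. All 39 were found among the 53465 genes of the table, and all 39 passed the filter on low counts that left 19110 genes for testing. Liver RNA of 93 male mice of 7 inbred strains was sequenced, with every mouse housed at 30°C (thermoneutrality, TN) from 6 wk of age. From 7 wk of age the mice ate a Western diet (WD, 40% of energy from fat) or a control diet (CD, 10% of energy from fat), both with 17% of energy from protein. The CD-TN groups held 5 mice (A/J), 6 mice (PWK/PhJ, WSB/EiJ, DBA/2J), 7 mice (CAST/EiJ, 129S1/SvImJ), or 8 mice (C57BL/6J). The WD-TN groups held 6 mice (WSB/EiJ, 129S1/SvImJ, A/J), 7 mice (PWK/PhJ, DBA/2J), or 8 mice (CAST/EiJ, C57BL/6J). WSB/EiJ, CAST/EiJ, and PWK/PhJ are wild-derived and the other strains are domesticated. The mice carried no transgene or deletion that the labels name, and the mice of each strain came from 2 or 3 cohorts.

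Interferons are secreted proteins that cells release when they sense viral or bacterial material. Type I and type III interferons signal to a complex that holds STAT2 and IRF9 and binds a DNA motif called the interferon-stimulated response element (ISRE). Type II interferon, made mostly by T and NK cells, leads to binding at another motif, the gamma-activated sequence (GAS). The genes that follow block viral replication, tag proteins with ISG15, load peptides on MHC class I, or disrupt vacuoles that hold pathogens, and most of them are transcribed at a low level in healthy liver.

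The 39 genes fall into 6 roles. There are 4 signaling and transcription factors (Irf1, Irf7, Irf9, and Stat2), 3 sensors of foreign nucleic acid (Ifih1, Dhx58, and Zbp1), and 2 genes of the ISG15 system (Isg15 and Usp18, the protease that removes ISG15). The 19 antiviral effectors are Ifit1, Ifit2, Ifit3, Oas1a, Oas2, Oas3, Oasl1, Oasl2, Mx1, Mx2, Ifi44, Rsad2, Rtp4, Xaf1, Bst2, Ifitm3, Parp14, Trim30a, and Cmpk2. The 8 GTPases are Gbp2, Gbp3, Gbp5, Gbp7, Iigp1, Igtp, Irgm1, and Irgm2, and the 3 antigen processing genes are Tap1, a peptide transporter, and the immunoproteasome subunits Psmb8 and Psmb9.

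RefSeq promoter windows of 300 bases (GRCm38.p6, 250 before the transcription start and 50 after it) were at hand for 30 of the 39 genes. The core of the ISRE was searched as GAAANNGAAA and the core of the GAS as TTCNNNGAA, each on both strands. The ISRE core stood in the windows of 18 of the 30 genes (60%) and in 3.44% of the 32851 windows of all genes. The GAS core stood in 10 of the 30 (33.33%) and in 8.3% of all windows. The 30 genes were counted by gene, with a match in any window of the gene, and the background by single window. The units thus differ for a gene with several windows, such as Trim30a. A match of these letters is a description of the window and was not tested as a binding site. The 5 stretches below show each core, and both together, in an antiviral effector, the ISG15 modifier, GTPases, and a transcription factor. They end before the start site, and capitals mark the matches:
Ifit1, chr19:34640769-34640829, + strand: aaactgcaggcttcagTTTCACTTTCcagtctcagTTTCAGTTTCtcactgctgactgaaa
Isg15, chr4:156200858-156200908, - strand: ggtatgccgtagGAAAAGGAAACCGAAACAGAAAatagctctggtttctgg
Gbp5, chr3:142496749-142496794, + strand: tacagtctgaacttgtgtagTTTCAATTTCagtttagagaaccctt
Igtp, chr11:58199491-58199546, + strand: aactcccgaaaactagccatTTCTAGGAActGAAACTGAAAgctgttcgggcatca
Irf1, chr11:53769904-53769954, + strand: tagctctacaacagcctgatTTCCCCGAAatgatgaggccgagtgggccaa

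The stretches of Ifit1, Isg15, and Gbp5 show the ISRE core, that of Irf1 the GAS core, and that of Igtp a GAS core 2 bases ahead of an ISRE core. The window of Gbp5 also held 2 GAS cores outside the stretch shown. In Isg15, 3 overlapping ISRE cores form 1 run. The RefSeq starts of Psmb9 and Tap1 lie 225 bases apart on opposite strands of chromosome 17, and neither window held either core.

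The libraries held 40020424 to 49894856 reads assigned to genes (median 46618609). Levels are given in CPM, reads of a gene scaled to a fixed library size, with library sizes scaled by TMM. A mouse on WD-TN in A/J (replicate 3) stood apart in 13 of the 39 genes, all at the high end. The diet calls of the 39 genes in A/J are given with and without it, and all other results keep it. In C57BL/6J on CD-TN, replicate 1 stood apart in Igtp and Irgm2. Hepatocyte genes filled the libraries as the liver label says, with Alb at a median of 85606 CPM, whereas the neutrophil marker Ly6g had no read in 47 of the 93 mice.

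Per kilobase of exon, the median level over all mice was highest for Ifitm3 at 414 CPM per kilobase, followed by Bst2 at 112 and Iigp1 at 60.9. It was lowest for Oas3 at 0.224 CPM per kilobase, with Gbp5 at 0.402 and Mx1 at 0.514. Ifitm3 and Bst2 encode membrane proteins that hold viruses back at entry and at release, and Oas3 makes the oligoadenylates that switch on RNase L.

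The question for diet was whether WD-TN changed the interferon-stimulated genes in each strain. In C57BL/6J, the strain with the largest number, 23 of the 39 genes were upregulated (limma-voom adjusted p below 0.05) beside 14.3% of all genes tested. In that strain 0 of the 39 were downregulated beside 11.9% of all genes, edgeR and DESeq2 called 0 as well, and 0 fell at an unadjusted p below 0.05. The median log2 fold change of the 39 genes was 0.52, against -0.002 for all genes tested. By role, 13 of the 19 antiviral effectors, 5 of the 8 GTPases, 2 of the 3 antigen processing genes, and 1 each of the sensors, the ISG15 system, and the signaling factors rose. With sample quality weights the count was 12.

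Gbp2 (ENSMUSG00000028270, chr3:142620602-142638008), a GTPase that coats pathogen vacuoles, ran from 4.60 to 14.3 CPM (median 9.29) on CD-TN and from 10.1 to 31.5 CPM (median 19.6) on WD-TN in C57BL/6J. The ranges overlapped; above all mice on CD-TN were 6 of the 8 on WD-TN. The log2 fold change was 1.15 (SE 0.19, adjusted p = 1.65e-06). Oas3 (ENSMUSG00000032661, chr5:120753098-120777661) rose from a median of 1.95 CPM (1.14 to 4.16) to 4.95 CPM (3.21 to 6.13), with a log2 fold change of 1.12 (SE 0.19, adjusted p = 2.75e-06).

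Ifit1 (ENSMUSG00000034459, chr19:34640871-34650009), which binds viral RNA, lay between 4.89 and 13.5 CPM (median 7.10) on CD-TN in C57BL/6J and between 11.6 and 20.5 CPM (median 13.7) on WD-TN. Its log2 fold change was 0.94 (SE 0.27, adjusted p = 0.00656). Isg15 (ENSMUSG00000035692, chr4:156199424-156200818), the ubiquitin-like modifier, went from 2.97 to 7.25 CPM (median 4.06) to 5.20 to 12.0 CPM (median 7.43), a log2 fold change of 0.74 (SE 0.20, adjusted p = 0.00316). Irf7 (ENSMUSG00000025498, chr7:141262706-141266481), the factor that amplifies type I interferon, shares exon sequence with Phrf1 on the opposite strand. It lay between 18.8 and 50.9 CPM (median 28.9) on CD-TN and between 29.4 and 63.0 CPM (median 47.1) on WD-TN, a log2 fold change of 0.62 (SE 0.20, adjusted p = 0.0126). In all 3 genes the diets overlapped although the medians moved apart.

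Mx1 (ENSMUSG00000000386, chr16:97447035-97462907) rose by 0.65 on the log2 scale in C57BL/6J (SE 0.25, adjusted p = 0.0417), from a median of 1.65 CPM to 2.46 CPM. Trim30a (chr7:104409025-104465193) rose from 8.25 to 14.8 CPM (median 10.7) to 14.8 to 21.9 CPM (median 17.5), with 7 of the 8 WD-TN mice above every CD-TN mouse. Psmb8, at 0.39 (SE 0.16, adjusted p = 0.0562), and Iigp1, at 0.03 (SE 0.17, adjusted p = 0.918), did not pass the threshold. Without replicate 1 on CD-TN, 23 genes rose in C57BL/6J, and Mx1 no longer passed the threshold (adjusted p = 0.0659).

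**Figure D1:**
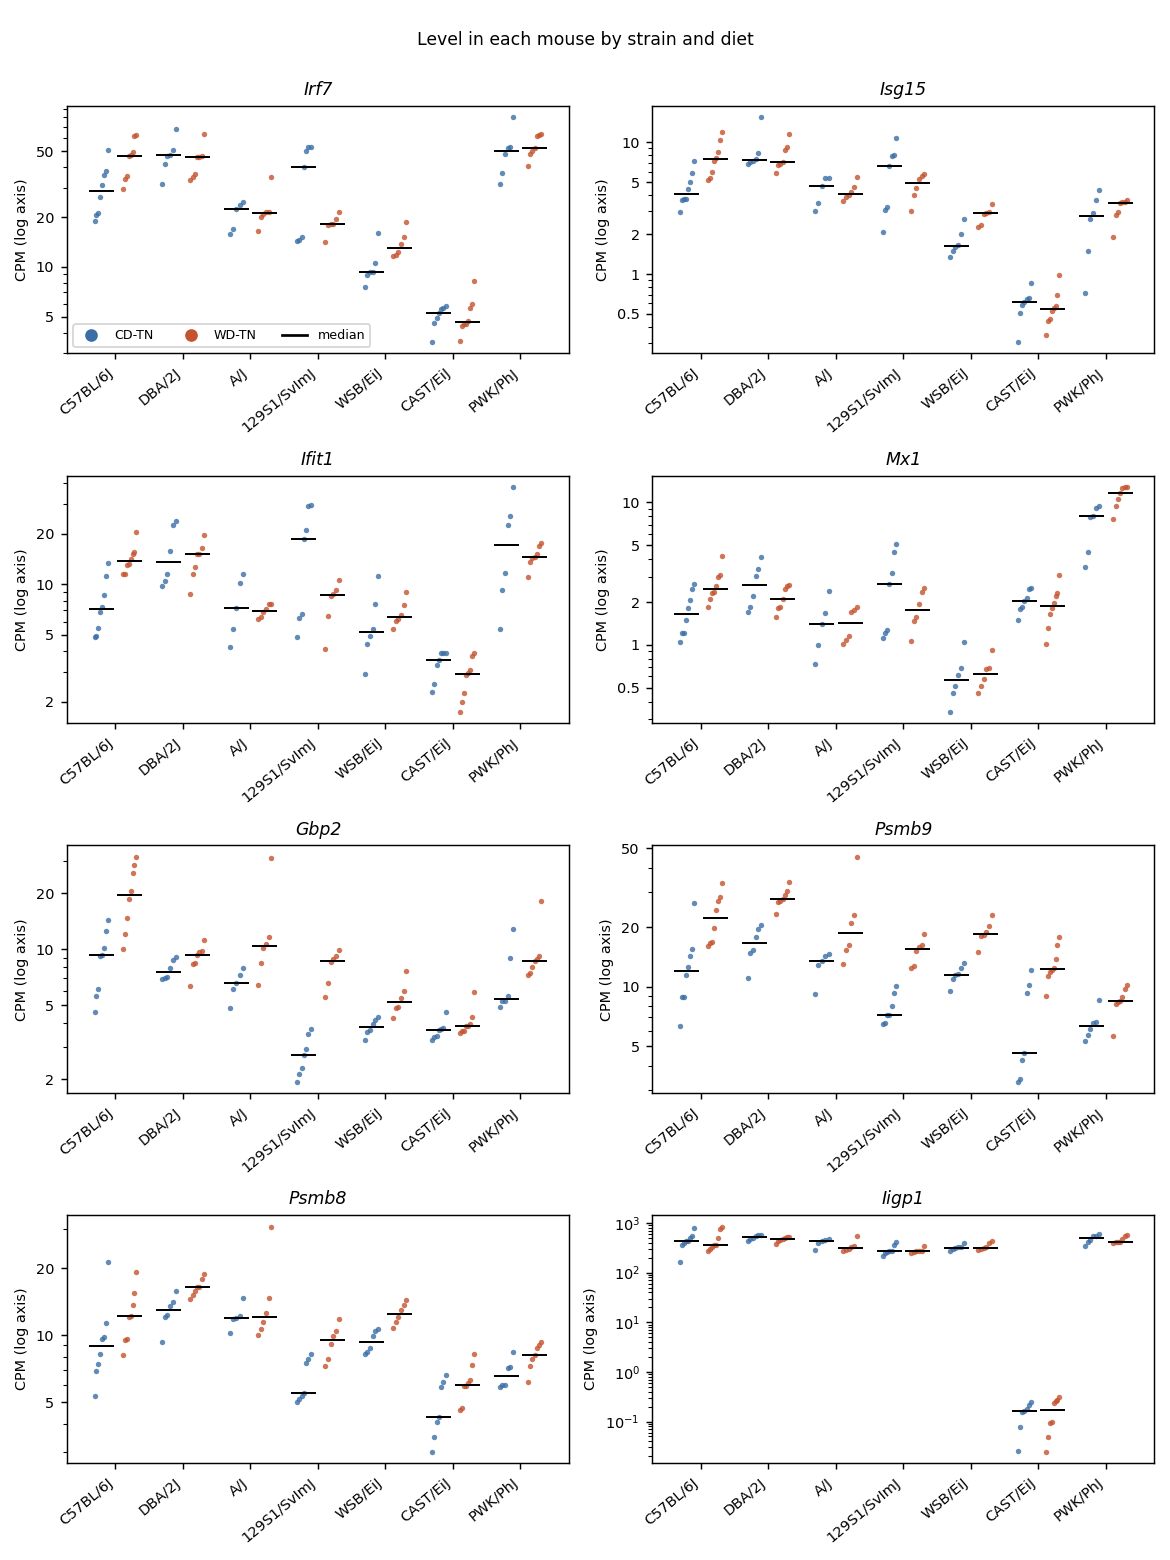
Level of 8 of the genes in CPM (log axis) in each mouse by strain, with CD-TN in blue, WD-TN in orange, points sorted within a group, and a line at the median. In C57BL/6J the WD-TN medians of Irf7, Isg15, Ifit1, Gbp2, and Psmb9 lay above the CD-TN medians, Iigp1 was under 1 CPM in CAST/EiJ alone, and 129S1/SvImJ on CD-TN split into 2 sets of mice for Irf7 and Ifit1.

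In 129S1/SvImJ the genes moved both ways, with 9 upregulated beside 14.5% of all genes and 5 downregulated beside 13.6%. The genes that rose were Gbp2, Gbp5, Irgm2, Tap1, Psmb8, Psmb9, Irf1, Zbp1, and Trim30a, and those that fell were Irf7, Stat2, Usp18, Ifit1, and Ifitm3. Gbp2 rose from 1.94 to 3.71 CPM (median 2.70) to 5.55 to 9.98 CPM (median 8.71), with no overlap between the diets and a log2 fold change of 1.57 (SE 0.30, adjusted p = 2.84e-05). Gbp5 (ENSMUSG00000105504, chr3:142493978-142522344), which promotes inflammasome assembly, rose from 1.45 to 2.08 CPM (median 1.85) to 3.99 to 5.69 CPM (median 4.97), also with no overlap and a log2 fold change of 1.42 (SE 0.26, adjusted p = 1.15e-05).

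Usp18 (ENSMUSG00000030107, chr6:121245906-121270917), which also dampens the type I receptor, had the largest decrease in 129S1/SvImJ. It ran from 2.73 to 18.0 CPM (median 10.7) on CD-TN and from 2.85 to 4.11 CPM (median 3.62) on WD-TN, and fell by 0.99 on the log2 scale (SE 0.34, adjusted p = 0.0212). Ifit1 fell by 0.81 (SE 0.31, adjusted p = 0.0441) and Irf7 by 0.69 (SE 0.23, adjusted p = 0.0173). For these 3 genes the WD-TN mice sat at the low end of a wide CD-TN range.

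That range followed the cohort. On CD-TN, Irf7 was 14.3, 14.5, and 15.2 CPM in the 3 mice of cohort 3, and 40.4, 50.0, 52.6, and 53.4 CPM in the 4 mice of cohort 5. Ifit1 was 4.87, 6.34, and 6.70 CPM in cohort 3 and 18.6, 21.1, 29.2, and 29.8 CPM in cohort 5. Usp18 was 2.73, 2.94, and 3.40 CPM in cohort 3 and 10.7, 11.1, 13.4, and 18.0 CPM in cohort 5. Isg15 was 2.10 to 3.22 CPM in cohort 3 and 6.60 to 10.8 CPM in cohort 5. The cohorts did not overlap in any of these 4 genes. On WD-TN, Irf7 was 14.2, 18.1, and 21.5 CPM in cohort 3 and 17.9, 18.1, and 19.4 CPM in cohort 5.

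Between the cohorts of 129S1/SvImJ on CD-TN, 19 of the 39 genes were higher in cohort 5 beside 0.173% of all genes, so that 33 genes in all were higher. None of the 39 was lower (limma-voom, 0 at an unadjusted p below 0.05) beside 0.0314%. The differences of the 19 ran from 0.58 on the log2 scale for Ifitm3 to 2.61 for Oas1a, both singled out after their values were seen, and 14 of the 19 are antiviral effectors. On WD-TN, 0 of the 39 and 0% of all genes differed between the cohorts, with 0 of the 39 at an unadjusted p below 0.05. Between the CD-TN cohorts 0 markers of any cell type list passed the threshold. The summed Kupffer cell markers were 198 to 279 CPM in cohort 3 and 290 to 332 CPM in cohort 5, and the summed pan-leukocyte markers were 30.7 to 42.9 and 44.4 to 49.7 CPM. The cohorts overlapped in the sums of every other cell type list. Those of recruited macrophages and monocytes were 43.1 to 58.5 and 34.0 to 59.7 CPM. Those of T and NK cells were 2.15 to 3.57 and 2.45 to 3.11 CPM. The part of these cells in the result was not tested.

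Within cohort 3 of 129S1/SvImJ, WD-TN upregulated 8 of the 39 genes beside 4.86% of all genes and downregulated 0 beside 3.89% (0 at an unadjusted p below 0.05), with a median log2 fold change of 0.55. Within cohort 5 it upregulated 5 beside 10.5% and downregulated 19 beside 9.85%, with a median of -0.41. Irf7 differed between diets by 0.27 on the log2 scale within cohort 3 and fell by 1.40 within cohort 5 (adjusted p = 1.1e-05). Gbp2 rose by 1.76 within cohort 3 (adjusted p = 0.0113) and by 1.48 within cohort 5 (adjusted p = 0.00282), and Gbp5 by 1.36 (adjusted p = 0.0165) and 1.50 (adjusted p = 0.000554). The difference of the diet effect between the cohorts passed the threshold for 0 of the 39 genes beside 0.0105% of all genes, and 23 of the 39 had an unadjusted p below 0.05. The adjusted p of that difference was 0.059 for Irf7.

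**Figure D2:**
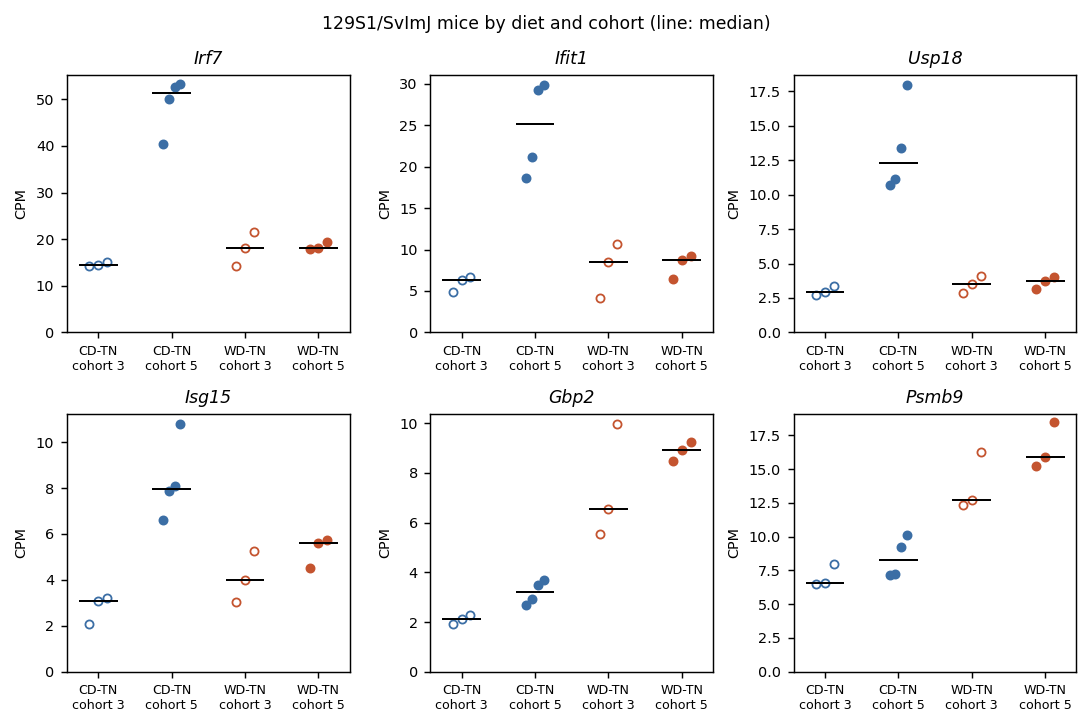
Levels in CPM of 6 genes in the 129S1/SvImJ mice by diet and cohort, each point a mouse (open, cohort 3; filled, cohort 5) and each line a median. Irf7, Ifit1, Usp18, and Isg15 were high only in the 4 mice on CD-TN of cohort 5, whereas Gbp2 and Psmb9 were higher on WD-TN in both cohorts.

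In PWK/PhJ, 5 of the 39 genes (12.8%) were upregulated beside 15.1% of all genes, a share close to the background. These were Oas3, Mx1, Ifit2, Trim30a, and Oas2. Stat2 alone was downregulated, beside 14.5% of all genes. Mx1 rose from 3.52 to 9.50 CPM (median 8.00) to 7.71 to 12.9 CPM (median 11.6), a log2 fold change of 0.72 (SE 0.17, adjusted p = 0.000777), with 5 of the 7 WD-TN mice above every CD-TN mouse. Oas3 rose from 0.663 to 2.54 CPM (median 1.36) to 1.65 to 3.75 CPM (median 2.38), by 0.82 (SE 0.26, adjusted p = 0.0119).

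The PWK/PhJ cohorts also parted on CD-TN. Ifit1, Mx2, and Xaf1 were higher in cohort 2 than in cohort 1, 3 of the 39 genes beside 0.0209% of all genes, with log2 differences of 1.74, 1.43, and 0.91. Within cohort 1, WD-TN upregulated 6 of the 39 beside 8.79% of all genes, and within cohort 2 it downregulated 6 beside 8.83%. The difference of the diet effect between these cohorts passed the threshold for 0 of the 39 beside 0.00523% of all genes, and 12 had an unadjusted p below 0.05. In C57BL/6J, WD-TN upregulated 16 of the 39 within cohort 1 beside 11.7% of all genes and 26 within cohort 2 beside 7.35%. On WD-TN in that strain, 14 of the 39 were higher in cohort 2 than in cohort 1 beside 5.06% of all genes, among them all 8 GTPases. The diet effect in C57BL/6J was higher in cohort 2 than in cohort 1 for 2 of the 39, Irgm1 and Iigp1, beside 2.81% of all genes.

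In CAST/EiJ, 5 of the 39 genes were upregulated beside 9.77% of all genes and 0 were downregulated beside 9.73%, whereas edgeR and DESeq2 each called 1 downregulated and 1 fell at an unadjusted p below 0.05. Psmb9 (ENSMUSG00000096727, chr17:34181987-34187764) rose from 3.31 to 12.2 CPM (median 4.65) to 8.95 to 17.8 CPM (median 12.3), a log2 fold change of 1.10 (SE 0.24, adjusted p = 0.000419). Tap1 (ENSMUSG00000037321, chr17:34187553-34197225) rose from 6.69 to 22.2 CPM (median 11.6) to 16.1 to 25.2 CPM (median 21.8), by 0.82 (SE 0.20, adjusted p = 0.00185). Dhx58, Irgm1, and Bst2 were the other 3.

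In DBA/2J, Psmb9 and Tap1 were upregulated beside 10.2% of all genes and Ifitm3 was downregulated beside 7.77%. Psmb9 rose from 11.1 to 20.5 CPM (median 16.6) to 23.3 to 34.0 CPM (median 27.9), with no overlap between the diets and a log2 fold change of 0.80 (SE 0.19, adjusted p = 0.00147). Tap1 rose by 0.51 (SE 0.18, adjusted p = 0.0415), again with no overlap. Ifitm3 (ENSMUSG00000025492, chr7:141009586-141010770) went from 286 to 432 CPM (median 324) to 241 to 288 CPM (median 275) and fell by 0.34 (SE 0.12, adjusted p = 0.0392). The other genes of this strain stayed below the threshold.

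In WSB/EiJ, Psmb9 and Bst2 were upregulated beside 4.97% of all genes and Stat2 was downregulated beside 3.97%. Bst2 (ENSMUSG00000046718, chr8:71534255-71537456) rose from 78.7 to 101 CPM (median 90.6) to 124 to 143 CPM (median 136), a log2 fold change of 0.59 (SE 0.13, adjusted p = 0.000881). Psmb9 rose by 0.71 (SE 0.22, adjusted p = 0.0291), from 9.56 to 13.2 CPM (median 11.5) to 15.0 to 23.1 CPM (median 18.6). The diets did not overlap in either gene.

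In A/J, Gbp2 and Psmb9 were upregulated beside 4.39% of all genes and Stat2 was downregulated beside 4.64%. Gbp2 was 4.87, 6.10, 6.58, 7.25, and 7.90 CPM in the 5 mice on CD-TN and 6.39 to 31.1 CPM (median 10.4) on WD-TN, a log2 fold change of 0.81 (SE 0.27, adjusted p = 0.0389). Psmb9 was 9.23, 12.9, 13.5, 14.4, and 14.7 CPM on CD-TN and 13.1 to 45.4 CPM (median 18.6) on WD-TN, a log2 fold change of 0.67 (SE 0.22, adjusted p = 0.0423). Without replicate 3 on WD-TN, which held the highest value of both genes, 0 of the 39 were upregulated and Stat2 was still called.

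Psmb9 was upregulated in 6 of the 7 strains, in A/J only with WD-TN replicate 3 kept. In PWK/PhJ it went from a median of 6.34 CPM to 8.51 CPM with a log2 fold change of 0.39 (SE 0.25, adjusted p = 0.255), and its diet effects were not shown to differ between strains (F test, adjusted p = 0.537). Averaged over the 7 strains, 15 of the 39 genes rose beside 27.1% of all genes and 2 fell beside 24.5%. The largest mean effects were those of Psmb9 at 0.79 (SE 0.08, adjusted p = 2.97e-13) and Gbp2 at 0.69 (SE 0.10, adjusted p = 1.87e-08). Stat2 (ENSMUSG00000040033, chr10:128270559-128292849) fell by 0.21 on average (SE 0.03, adjusted p = 3.34e-08), and Usp18 had a mean effect of -0.27 (SE 0.13, adjusted p = 0.0876). Stat2, a part of the ISRE-binding complex, fell in 129S1/SvImJ, A/J, PWK/PhJ, and WSB/EiJ. All 7 mice on WD-TN in PWK/PhJ, at 87.0 to 97.9 CPM, lay below all mice on CD-TN, at 99.5 to 130 CPM. Of the 39 genes, 12 were upregulated in no strain (30.8%, beside 62.4% of all genes), 15 in 1 strain (38.5%, beside 19.0%), 7 in 2 (17.9%, beside 8.59%), and 5 in 3 or more (12.8%, beside 9.99%).

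**Figure D3:**
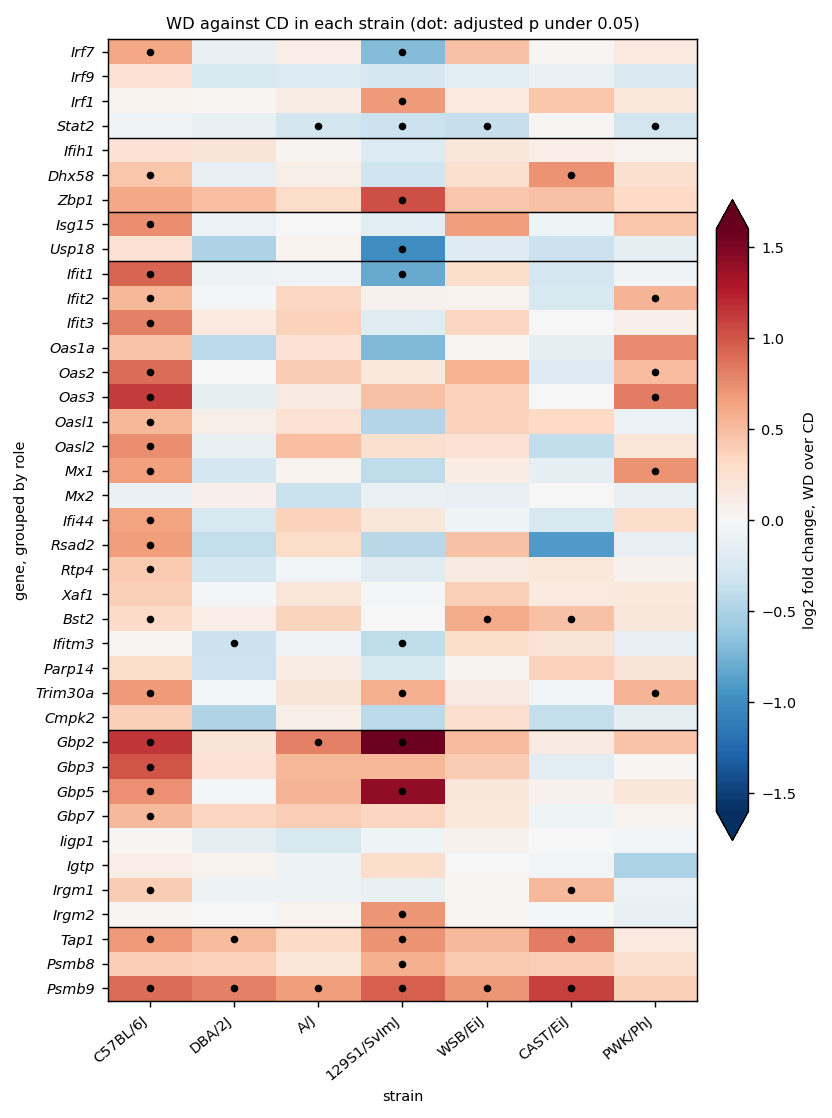
Log2 fold change of WD-TN over CD-TN for the 39 genes (rows, grouped by role with lines between roles) in the 7 strains (columns), with red for higher and blue for lower on WD-TN and a dot where the adjusted p was below 0.05. Psmb9 carried a dot in 6 strains (in A/J only with WD-TN replicate 3 kept), C57BL/6J had 23 dots, all red, and 129S1/SvImJ had 9 red and 5 blue.

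The diet effect differed between strains for 16 of the 39 genes by an F test, beside 35.9% of all genes, a share close to that of the background. The smallest p-values were those of Ifitm3 (adjusted p = 0.00345), Trim30a (0.00853), Irf7 (0.0129), and Gbp5 (0.0136). For Irf7 the log2 fold change ran from -0.69 in 129S1/SvImJ to 0.62 in C57BL/6J, and for Gbp5 from -0.02 in DBA/2J to 1.42 in 129S1/SvImJ. The 129S1/SvImJ effects pool both cohorts. As given above, Irf7 fell within cohort 5 but not within cohort 3, where none of the 39 genes was downregulated. Ifitm3 ran from -0.41 in 129S1/SvImJ to 0.28 in WSB/EiJ. In Trim30a, PWK/PhJ had an effect of 0.54, 129S1/SvImJ one of 0.59, and C57BL/6J one of 0.68, and the other strains lay between -0.04 and 0.21. Each strain's effect was also set against the mean effect of the other 6. It was higher in C57BL/6J for 6 genes (Ifit1, Oas2, Oas3, Oasl2, Rsad2, and Trim30a) beside 2.24% of all genes. In 129S1/SvImJ it was higher for Gbp2 and Gbp5 beside 3.35% and lower for Irf7, Ifih1, and Ifitm3 beside 2.94%. In CAST/EiJ it was higher for Stat2, Dhx58, and Irgm1 beside 7.59%, and in PWK/PhJ for Mx1 alone, also beside 7.59%.

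The other genes of the pathway were taken from a list of 47, of which 38 were tested. The 9 ligands were at or near 0: Ifng had at most 10 reads in a mouse and a median of 0, Ifnk at most 6, and Ifnb1 at most 1, and none of the 9 passed the filter. Of the 38, 129S1/SvImJ had 16 upregulated (42.1%, beside 14.5% of all genes) and 3 downregulated (7.89%, beside 13.6%). PWK/PhJ had 12 upregulated (31.6%, beside 15.1%) and 1 downregulated (2.63%, beside 14.5%). C57BL/6J had 12 (31.6%, beside 14.3%) and 2 (5.26%, beside 11.9%). In CAST/EiJ 6 rose (15.8%, beside 9.77%) and 3 fell (7.89%, beside 9.73%). The shares in DBA/2J were near the background, with 3 up (7.89%, beside 10.2%) and 4 down (10.5%, beside 7.77%). A/J had 1 up (2.63%, beside 4.39%) and 1 down (2.63%, beside 4.64%). WSB/EiJ had 1 up (2.63%, beside 4.97%) and 0 down (beside 3.97%). Tlr7 and Tlr9, endosomal receptors for RNA and DNA, rose in C57BL/6J (1.02 and 1.19 on the log2 scale), 129S1/SvImJ (1.44 and 1.38), and PWK/PhJ (1.14 and 1.52), and Tlr9 also rose in WSB/EiJ (1.51). Tmem173, which encodes the adaptor STING, rose in 129S1/SvImJ (0.95), PWK/PhJ (0.82), and C57BL/6J (0.64). Other genes among the 38 went down. Irf3 fell in A/J (-0.22), C57BL/6J (-0.17), PWK/PhJ (-0.25), 129S1/SvImJ (-0.25), and DBA/2J (-0.23). It rose in CAST/EiJ (0.17) and was not called in WSB/EiJ (-0.06). Pias1 fell in C57BL/6J (-0.27), 129S1/SvImJ (-0.21), and DBA/2J (-0.27) and was called in no other strain.

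Markers of hepatocytes and of several immune cell types moved with diet in some strains. Of all genes, the share that rose was 15.1% (PWK/PhJ), 14.5% (129S1/SvImJ), 14.3% (C57BL/6J), 10.2% (DBA/2J), 9.77% (CAST/EiJ), 4.97% (WSB/EiJ), or 4.39% (A/J). The share that fell was 14.5%, 13.6%, 11.9%, 7.77%, 9.73%, 3.97%, or 4.64% in the same order. Of the 10 hepatocyte markers, the number that fell was 2 (DBA/2J), 3 (WSB/EiJ and CAST/EiJ), 4 (A/J), 5 (C57BL/6J), or 6 (129S1/SvImJ and PWK/PhJ). Of the 6 pan-leukocyte markers, all 6 rose in PWK/PhJ, C57BL/6J, and 129S1/SvImJ, 2 rose in WSB/EiJ, 1 in A/J, and 0 in CAST/EiJ and DBA/2J. Of the 9 markers of recruited macrophages and monocytes, 8 rose in each of PWK/PhJ, C57BL/6J, and 129S1/SvImJ, and the ninth fell in C57BL/6J. Of these 9, 5 rose in WSB/EiJ, 3 in A/J, 1 in CAST/EiJ, and 0 in DBA/2J. Of the 9 Kupffer cell markers, 6 rose in 129S1/SvImJ, 5 in PWK/PhJ, 5 in C57BL/6J, 1 in CAST/EiJ, and 0 in the other strains. Of the 5 plasmacytoid dendritic cell markers, 3 rose in 129S1/SvImJ, 3 in C57BL/6J, and 1 each in PWK/PhJ, A/J, and WSB/EiJ. None of these 5 rose in CAST/EiJ or DBA/2J. The summed markers of recruited macrophages and monocytes went from 70.3–734 CPM (median 94.3) to 89.0–640 CPM (median 210) in C57BL/6J. In PWK/PhJ that sum went from 69.1–150 CPM (median 118) to 221–643 CPM (median 463). Of the 11 T and NK cell markers, 0 rose and 2 fell in PWK/PhJ (18.2%, beside 14.5% of all genes, a share close to the background). In 129S1/SvImJ 8 rose (72.7%, beside 14.5%). In C57BL/6J, CAST/EiJ, and WSB/EiJ 1 each rose (9.09%, beside 14.3%, 9.77%, and 4.97%), and 0 rose in A/J and DBA/2J. The summed T and NK cell markers in 129S1/SvImJ went from 2.15–3.57 CPM to 4.62–7.44 CPM. Of the 5 B cell markers, 0 rose in any strain and 1 fell, in C57BL/6J. Of the 5 neutrophil markers, 2 rose in 129S1/SvImJ, 2 in PWK/PhJ, 1 each in DBA/2J and WSB/EiJ, and 0 in the other strains. In RNA of whole liver, more cells of a type and more RNA per cell cannot be told apart, and the part of these cells in the changes of the 39 genes was not tested.

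On CD-TN, the question was how far the strains differed without WD. All 39 genes differed between strains by an F test, as did 93.6% of all genes. Each strain was then compared with the mean of the other 6. CAST/EiJ had the lowest levels, with 33 of the 39 genes lower beside 31.5% of all genes and 2 higher (Mx2 and Stat2) beside 32.4%. WSB/EiJ had 22 lower beside 23.8% and 1 higher (Iigp1) beside 25.4%. DBA/2J had 29 higher beside 22.9% and 0 lower beside 19.4% (limma-voom, 2 at an unadjusted p below 0.05, and 0 with edgeR and DESeq2). PWK/PhJ had 23 higher beside 30.2% and 3 lower beside 28.4%, and C57BL/6J had 23 higher beside 29.5% and 3 lower beside 28.4%. A/J had 10 higher beside 20.5% and 4 lower beside 16.2%, and 129S1/SvImJ had 7 higher beside 23.6% and 8 lower beside 20.6%. For each strain but CAST/EiJ, the mean of the other 6 included CAST/EiJ, which raises the difference for the genes low in CAST/EiJ. Averaged over mice, the mean log2 CPM of the 39 genes was 2.56 in CAST/EiJ, 3.13 in WSB/EiJ, 3.62 in 129S1/SvImJ, and 3.73 in A/J. It was 3.88 in C57BL/6J, 4.12 in PWK/PhJ, and 4.26 in DBA/2J.

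Iigp1 (ENSMUSG00000054072, chr18:60376027-60392634), an immunity-related GTPase, had 1 to 10 reads per mouse on CD-TN in CAST/EiJ (0.0258 to 0.245 CPM) and at least 9844 reads per mouse in every other strain (165 to 780 CPM in C57BL/6J, the widest range). On WD-TN it had 1 to 13 reads in CAST/EiJ. The fitted log2 difference of CAST/EiJ was -11.44 (SE 0.65), a value that depends on the fraction of a read that voom adds to each count. The 6 other strains were called higher for Iigp1, with a mean of the others that includes CAST/EiJ. Reads that did not map made up 10.8% ± 1.66 (SD, n = 7) in CAST/EiJ on CD-TN and 2.23% ± 0.329 (SD, n = 8) in C57BL/6J. All reads were mapped to the C57BL/6J genome, and the part of mapping in a strain difference of a single gene was not tested.

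Irf7 on CD-TN was 3.51 to 5.76 CPM (median 5.23) in CAST/EiJ and 7.56 to 16.0 CPM (median 9.30) in WSB/EiJ. It was 15.8, 16.9, 22.4, 23.7, and 24.8 CPM in A/J. The medians were 28.9 CPM in C57BL/6J, 40.4 in 129S1/SvImJ, 47.2 in DBA/2J, and 50.4 in PWK/PhJ, and these 4 strains overlapped with one another. The 129S1/SvImJ median was the value of a cohort 5 mouse, and the cohort 3 mice of that strain lay below every A/J mouse. CAST/EiJ lay below every mouse of the other 6 strains. Isg15 showed the same low end, at 0.305 to 0.863 CPM in CAST/EiJ, but in PWK/PhJ it was 0.724 to 4.35 CPM (median 2.77) and not called against the other strains (log2 difference -0.44, SE 0.25, adjusted p = 0.123).

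Mx2 (ENSMUSG00000023341, chr16:97535308-97560900), which the annotation gives as a polymorphic pseudogene, ran the other way. It was 36.9 to 160 CPM (median 81.9) in PWK/PhJ and 24.0 to 54.2 CPM (median 40.6) in CAST/EiJ, and its highest value in any other strain was 20.1 CPM. The log2 differences from the other strains were 2.85 (SE 0.16) and 1.62 (SE 0.15), the largest of PWK/PhJ and CAST/EiJ in the upward direction. In PWK/PhJ, Mx1 was also high, at 3.52 to 9.50 CPM against 0.338 to 1.05 CPM in WSB/EiJ.

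Xaf1 (ENSMUSG00000040483, chr11:72301629-72313733), which promotes apoptosis, also set strains apart. Its medians were 32.0 CPM in PWK/PhJ, 28.1 in DBA/2J, and 21.1 in 129S1/SvImJ, and 7.64 CPM in C57BL/6J, 7.39 in CAST/EiJ, 6.68 in A/J, and 3.70 in WSB/EiJ. All mice of PWK/PhJ and DBA/2J lay above all mice of the last 4 strains, and 129S1/SvImJ, at 11.5 to 35.0 CPM, overlapped C57BL/6J. Oasl1 and Oasl2, which lie beside each other on chromosome 5 and encode relatives of the oligoadenylate synthetases, were highest in PWK/PhJ, at 17.0 to 44.8 CPM (median 25.4) and 11.0 to 28.3 CPM (median 22.0). Their log2 differences from the other strains were 1.71 (SE 0.15) and 1.78 (SE 0.14). Oasl1 was lowest in WSB/EiJ at 3.61 to 7.01 CPM (median 4.39).

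In PWK/PhJ, 12 of the 19 antiviral effectors were higher and 1, Ifit3, was lower, with log2 differences of 1.00 for Ifit1 and -1.87 for Ifit3. Of the 8 GTPases 5 were higher, among them Irgm1 at 1.15, and of the 3 antigen processing genes 2 were lower, Tap1 at -0.46 and Psmb9 at -0.70. In WSB/EiJ the log2 difference of Gbp3 was -2.30, and its median was 1.40 CPM. Ifit3, Irgm1, and Gbp3 were singled out after their values were seen.

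**Figure D4:**
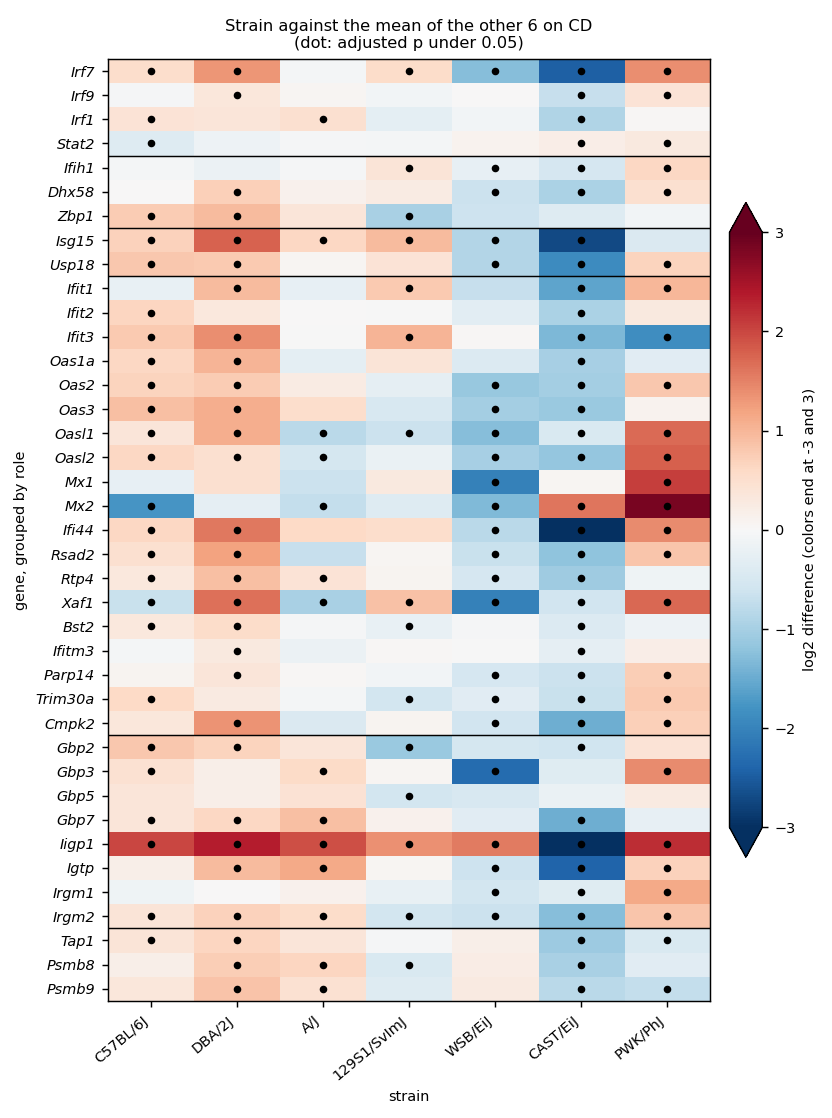
Log2 difference of each strain from the mean of the other 6 on CD-TN for the 39 genes (rows, grouped by role), with red for higher, blue for lower, and a dot where the adjusted p was below 0.05. Colors end at -3 and 3, past which Iigp1 in CAST/EiJ (-11.44) and Ifi44 in CAST/EiJ (-3.93) lay. CAST/EiJ had 33 blue dots and DBA/2J 29 red ones.

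As a description of each mouse, the mean log2 CPM over the 39 genes was lowest in CAST/EiJ, at 2.27 to 2.83 (median 2.59) on CD-TN and 2.44 to 3.02 (median 2.57) on WD-TN. WSB/EiJ followed at 2.89 to 3.53 (median 3.10) and 3.19 to 3.70 (median 3.27). The median was 3.84 on CD-TN and 4.45 on WD-TN in C57BL/6J, the widest step of the 7 strains. In 129S1/SvImJ on CD-TN the 3 mice of cohort 3 lay at 3.03 and the 4 of cohort 5 at 3.80 to 4.29. No test was run on this mean, because the genes were chosen with results of these data known.

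**Figure D5:**
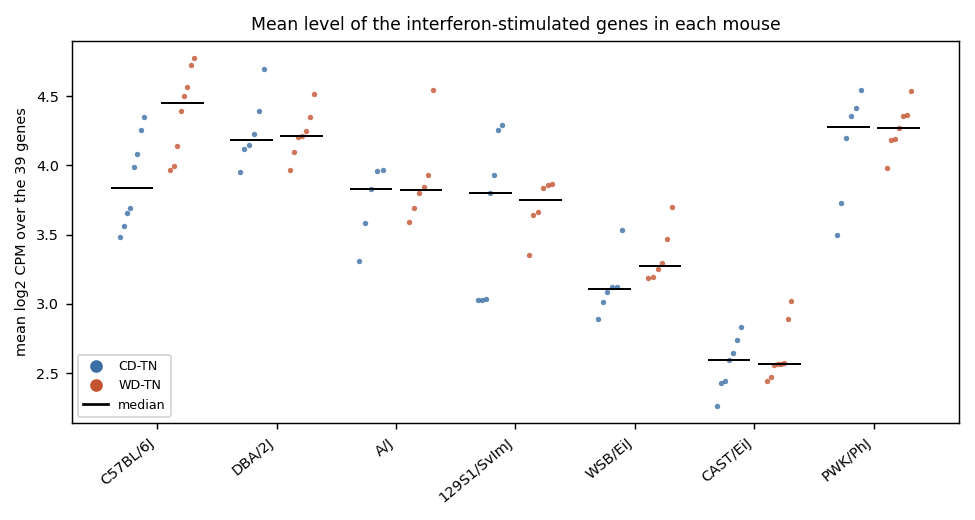
Mean log2 CPM over the 39 genes in each mouse by strain and diet (CD-TN blue, WD-TN orange, points sorted within a group, line at the median). CAST/EiJ and WSB/EiJ lay lowest on both diets, C57BL/6J on WD-TN had the highest median at 4.45, and 3 mice of 129S1/SvImJ on CD-TN lay apart at 3.03.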

How the data were processed

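The table deposited by the authors holds unnormalized gene counts for the 93 livers. Per the labels, STAR 2.7.1a and GRCm38 were used. The annotation release and strand setting are not given in the sources used here. Reads that the counting marked as ambiguous form a class of their own and are in no gene's count. How many of them belonged to overlapping genes (Igtp with Irgm2, Tap1 with Psmb9, Irf9 with Rnf31) is not known. Symbols came from GENCODE M21. In R 4.3.3, edgeR 4.0.16 (filterByExpr, minimum count 10, TMM) and limma 3.58.1 (voom, 1 fit with 14 group means) gave moderated tests, with Benjamini–Hochberg adjustment over 19110 genes in each contrast and a threshold of 0.05. Cohorts were compared in a second fit with a mean for each strain, diet, and cohort. The alternatives were the edgeR quasi-likelihood test, DESeq2 1.42.0, upper-quartile scaling, no filter beyond any count, 10 counts in every mouse, a cohort or RNA integrity covariate, a fit for each strain, sample quality weights, and leaving out single mice. Scripts were tested on simulated data. The 39 genes, roles, and lists were chosen with earlier results of these data known.

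Genes described by mouse followed a rule: 7 genes fixed by role (Irf7, Mx1, Isg15, Ifit1, Psmb8, Gbp2, and Iigp1), the 2 largest called changes in each direction per strain, the 4 and 6 smallest p-values of the F tests on diet effects and CD levels, and the 2 largest and 2 smallest mean effects, 20 genes in all. Promoter windows of 9 genes were not analysed here. Reads counted ran from 51767249 to 62943862 per mouse. Replicates are separate mice. Precision is set by the spread between mice, and for Iigp1 in CAST/EiJ by counting error. No 2 mice had identical counts (0 pairs).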

Additional observations from a re-analysis of the deposited data

Results flagged for a closer look

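A mouse that lay far from the rest of its group, by Dixon's criterion on log2 CPM, was seen in 34 of the 546 pairs of a gene and a group (6.23%), and chance gives about 1 in 20. Of these, 13 belonged to A/J on WD-TN replicate 3, which was high for Irf7 (35.0 CPM), Oas1a (5.45), Oas2 (8.00), Oasl2 (13.7), Rtp4 (29.3), Xaf1 (10.2), Bst2 (130), Gbp3 (25.2), Iigp1 (538), Igtp (205), Irgm1 (105), Tap1 (78.4), and Psmb8 (30.7). In A/J on CD-TN, replicate 3 was low for Oas1a (1.87 CPM) and Psmb9 (9.23). In C57BL/6J on CD-TN, replicate 1 was high for Igtp (133 CPM) and Irgm2 (192), genes that share exon sequence, and replicate 2 was low for Irf9 (23.7) and Ifitm3 (172).

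In PWK/PhJ on WD-TN, replicate 7 was high for Gbp2 (18.1 CPM), Gbp5 (6.69), and Gbp7 (18.6), replicate 3 was low for Ifit2 (4.68) and Isg15 (1.92), and replicate 6 was low for Psmb9 (5.64). On CD-TN in that strain, replicate 5 was high for Bst2 (114 CPM). In DBA/2J on CD-TN, Isg15 was high in replicate 5 (15.6 CPM) and Zbp1 low in replicate 1 (4.08). In WSB/EiJ, Oasl1 (3.63 CPM, replicate 1) and Tap1 (29.6, replicate 3) were low on WD-TN, and Zbp1 (8.66, replicate 3) was high on CD-TN. In CAST/EiJ, Gbp2 was high on WD-TN (5.86 CPM, replicate 3) and Gbp3 low on CD-TN (3.80, replicate 6). Iigp1 was high in 129S1/SvImJ on WD-TN replicate 6 (342 CPM).

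The diet effect differed between strains by the F test for 16 genes, and the spread from the lowest to the highest strain on the log2 scale was 1.74 for Ifit1, 1.58 for Rsad2, 1.46 for Oas1a, 1.44 for Gbp5, 1.43 for Gbp2, 1.31 for Irf7, 1.26 for Oas3, 1.13 for Oasl2, 1.12 for Mx1, 1.09 for Oas2, 1.03 for Dhx58, 0.72 for Trim30a, 0.70 for Parp14, 0.69 for Ifitm3, 0.65 for Irgm1, and 0.38 for Stat2. In C57BL/6J the diet effect was larger in cohort 2 than in cohort 1 for Irgm1 (difference 0.99) and Iigp1 (0.97), 2 of the 39 genes beside 2.81% of all genes.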

How the results depend on the processing

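Counts of the 39 genes up or down on WD-TN, and on CD-TN against the other strains, stayed within 1.5 times the reported count unless named here, and where no value shows it the cause was not tested. In 129S1/SvImJ the 9 upregulated genes were 5 within cohort 5, and the 5 downregulated were 9 with sample quality weights, 2 in a fit of the strain alone, 0 within cohort 3, and 19 within cohort 5. In A/J the 2 upregulated were 0 with no count filter, with a cohort covariate, without WD-TN replicate 3, and within cohorts 2 and 3, 1 in a fit of the strain alone, and 0 to 1 when 1 mouse on CD-TN was left out. The 1 downregulated was 0 to 1 when 1 mouse on CD-TN was left out (0 without replicate 2 or 5) and 0 within cohorts 2 and 3. In C57BL/6J the 23 were 12 with quality weights. In CAST/EiJ the 5 upregulated were 0 within cohorts 1 and 3, and the 0 downregulated were 1 with edgeR, DESeq2, and a fit of the strain alone. In DBA/2J the 2 upregulated were 1 with edgeR, DESeq2, and no filter and 0 within cohort 5, and the 1 downregulated was 0 with no filter and within cohorts 4 and 5 and 2 with the cohort covariate. In PWK/PhJ the 5 upregulated were 0 within cohort 2, and the 1 downregulated was 2 in a fit of the strain alone, 0 within cohort 1, and 6 within cohort 2. In WSB/EiJ the 2 upregulated were 1 with no filter and within cohort 6, 7 in a fit of the strain alone, and 0 within cohort 7, and the 1 downregulated was 0 within cohort 7. The 16 genes whose diet effect differed were 25 with the cohort covariate. On CD-TN, the 7 higher in 129S1/SvImJ were 11 with edgeR, DESeq2, and quality weights, the 4 lower in A/J were 2 with no filter, the 0 lower in DBA/2J were 1 with upper-quartile scaling and quality weights, and the 1 higher in WSB/EiJ was 0 when every mouse needed 10 counts. Within cohort 3 of 129S1/SvImJ, Ifit1 (0.29), Irf7 (0.27), and Usp18 (0.20) turned positive, and within cohort 1 of CAST/EiJ Tap1 turned to -0.0161. The within-cohort fits and the fits without A/J replicate 3 or C57BL/6J replicate 1 were chosen after seeing the data. No paired analysis was possible because the replicate numbers only name mice. Depth limits Iigp1 in CAST/EiJ and the interferon ligands.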
